A study of Mus musculus with 24 samples.

Results

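The enzymes described here are the liver's conjugating and aldehyde-clearing families: the UDP-glucuronosyltransferases (UGT), the sulfotransferases (SULT) and the aldehyde dehydrogenases (ALDH). Members were all probe sets for which the platform annotation lists exactly 1 gene symbol beginning with Ugt, Sult or Aldh and a digit. This rule gave 65 of the 45037 probe sets that are not array controls, for 44 of 18193 genes: 14 probe sets of 11 UGT genes, 15 of 13 SULT genes and 36 of 20 ALDH genes. A further 6 probe sets pool several such symbols, among them those of the Ugt1a locus, and were left out. Liver RNA came from 18 male C57BL6J mice, 1 Affymetrix array per mouse. There were 6 mice in each of 3 groups: those on low-fat food (LF), those on food high in fat, at 45% (HF), and those on the HF food to which 5% propagule powder had been added (HF+P). Propagules are the aerial tubers of Japanese yam. All were first accustomed to low-fat food, fed the diets for 4 weeks and starved for 16 h before the liver was taken. The labels give no age. HF against LF addressed the effect of fat, and HF+P against HF the effect of the propagules. The 6 HF arrays carry values from 1 analysis with LF and another with HF+P, and each comparison used the HF values made with its own partner group.

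UGT enzymes of the endoplasmic reticulum attach a sugar, mostly glucuronic acid, to bilirubin, steroids, bile acids and drugs, which makes these water-soluble for export into bile and urine. SULT enzymes of the cytosol attach sulfate from the donor PAPS to phenols, steroids and bile acids. ALDH enzymes oxidise aldehydes to acids with NAD or NADP. They clear acetaldehyde and lipid aldehydes, make retinoic acid from retinal, and serve steps of amino acid, folate and carnitine metabolism. Hepatocytes are a main site of all 3 families, and nuclear receptors for bile acids, steroids and foreign compounds control many of their genes.

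Part of the family lies in tight clusters of related copies. In the order of the RefSeq annotation of GRCm38.p6, the member genes of the chromosome 5 cluster run Ugt2b34, Ugt2b1, Ugt2b35, Ugt2b36, Ugt2b5, Ugt2b37, Ugt2a3, Ugt2b38, Sult1b1, Sult1d1 and Sult1e1. The promoters of 4 of these genes are shown because they are close copies whose standardized differences between HF and LF were unlike. Each line gives the 100 bases before the annotated start from RefSeq, 5′ to 3′ on the gene's strand, and capitals mark AGGTCA, the half-site that nuclear receptors bind.
Ugt2b36: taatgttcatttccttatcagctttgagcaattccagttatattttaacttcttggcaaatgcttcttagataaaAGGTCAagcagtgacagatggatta
Ugt2b5: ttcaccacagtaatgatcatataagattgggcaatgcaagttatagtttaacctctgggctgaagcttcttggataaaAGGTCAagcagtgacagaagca
Ugt2b37: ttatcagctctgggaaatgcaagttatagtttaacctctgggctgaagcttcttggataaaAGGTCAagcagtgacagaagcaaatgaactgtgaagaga
Ugt2b38: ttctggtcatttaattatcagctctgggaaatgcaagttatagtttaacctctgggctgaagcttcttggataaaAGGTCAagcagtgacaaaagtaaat
The windows lie at chr5:87092556-87092655 for Ugt2b36, chr5:87140341-87140440 for Ugt2b5, chr5:87254789-87254888 for Ugt2b37 and chr5:87424204-87424303 for Ugt2b38, all on the minus strand of GRCm38.p6. All 4 hold the same 22 bases, gataaaAGGTCAagcagtgaca. AGGTCA or its reverse complement TGACCT stood in 7 of the 40 windows found for 35 member genes (those of Aldh3b1, Aldh6a1, Sult2a8, Ugt2b36, Ugt2b37, Ugt2b38 and Ugt2b5), and in 5.88% of all 32851 promoter windows of that length. GTTAAT or its reverse complement ATTAAC, the half-site of HNF1, stood in 2 member windows (Sult1d1 and Ugt2a3) and in 2.51% of all windows. Of the 7 member windows with the nuclear receptor half-site, 4 are those of the copies that share the 22 bases. In Aldh6a1 and Sult2a8 it stood in only 1 of the windows found for the gene. Such a match is a description of letters, not a site of binding.

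Aldh1a1 and Aldh1a7 are neighbouring copies on chromosome 19, and their promoters are shown because both had among the larger standardized differences of the family in both comparisons. Capitals mark the bases in which the 2 differ, 6 of 100, and the other 94 are equal.
Aldh1a1: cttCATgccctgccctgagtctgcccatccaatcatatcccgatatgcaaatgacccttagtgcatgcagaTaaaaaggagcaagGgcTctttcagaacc
Aldh1a7: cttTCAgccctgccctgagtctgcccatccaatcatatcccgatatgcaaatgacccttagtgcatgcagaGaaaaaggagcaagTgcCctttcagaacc
The Aldh1a1 window is chr19:20601868-20601967 on the plus strand, at the annotated start nearer to Aldh1a7, and that of Aldh1a7 is chr19:20727557-20727656 on the minus strand. Copies this close can share probes in their transcripts too, so the values of Ugt2b, Sult1, Sult2a and Aldh1a members may mix related transcripts, and their assignment to 1 gene is uncertain.

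The deposited values run from 5.36 to 15 and differ between arrays by very little. The SD over 12 arrays had a median of 4.17 millionths of a unit over all probe sets in the LF and HF values and of 4.26 millionths in the HF and HF+P values. The members' pooled SD within LF and HF had a median of 6.05 millionths and ran from 0.784 (Aldh9a1 1436689_a_at) to 56300 (Ugt2b38). Ranked among all probe sets of an array, a member moved by a median of only 2 places over the 12 LF and HF arrays, and 21 members held the same place on all 12. Aldh1a1, Aldh1a7, Ugt2b36, Sult2a8 and Aldh9a1 1437398_a_at were among these 21. No fold change is therefore read from these values. Differences are given in millionths of a deposited unit, and sizes as standardized differences, meaning how many pooled within-group SDs lie between the means of 2 groups, with a 95% interval. The column medians of HF lay 64.5 millionths above those of LF (33.6 with the array controls included), against an SD of 21.5 within groups, while the median probe set had a standardized difference of only 0.015. Only 10 of the 65 members had a difference between HF and LF larger than that shift. Of the 44 members higher in HF as deposited, 6 were higher once it was removed by centring each array on its median. For HF+P against HF the shift was -4.09 millionths, with an SD of 6.15. For 7 of 8 listed hepatocyte markers a probe set was found, at deposited means between 7.56 and 14.9; the files give no background, so whether these levels show the tissue was not tested. P-values weigh a group difference against the spread of the deposited values between arrays, and the number of arrays limits their precision. That spread itself differed between the 2 analyses of the same HF arrays.

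In HF against LF, 44 of the 65 members had the higher mean in HF and 21 the lower one, with a median standardized difference of 0.35, against 0.015 over all probe sets; after centring each array on its median only 6 of the 65 stayed higher, and after quantile normalisation 11 of the 44 with a value. None of the 65 passed an adjusted p of 0.05 in limma with Benjamini-Hochberg adjustment over all probe sets, a threshold that 0.671% of all probe sets passed. At an unadjusted p of 0.05 in limma, 16 members (24.6%) were higher, where the share of all probe sets was 5.69%, and 2 (3.08%) were lower, where it was 7.25%. In 4 members (6.15%) every HF mouse lay above every LF mouse, against 0.644% of all probe sets, and in 0 every HF mouse lay below, against 0.921%. The tilt of the members towards HF stood in the values as deposited. Under both other scalings most of the array stood lower in HF, not the members in particular. After median centring 1291 of all 45037 probe sets were higher, with a median of -2.72, against -2.50 in members. After quantile normalisation 5822 of all 40595 with a value were higher, with a median of -0.84, against -0.69 in members.

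**Figure D1:**
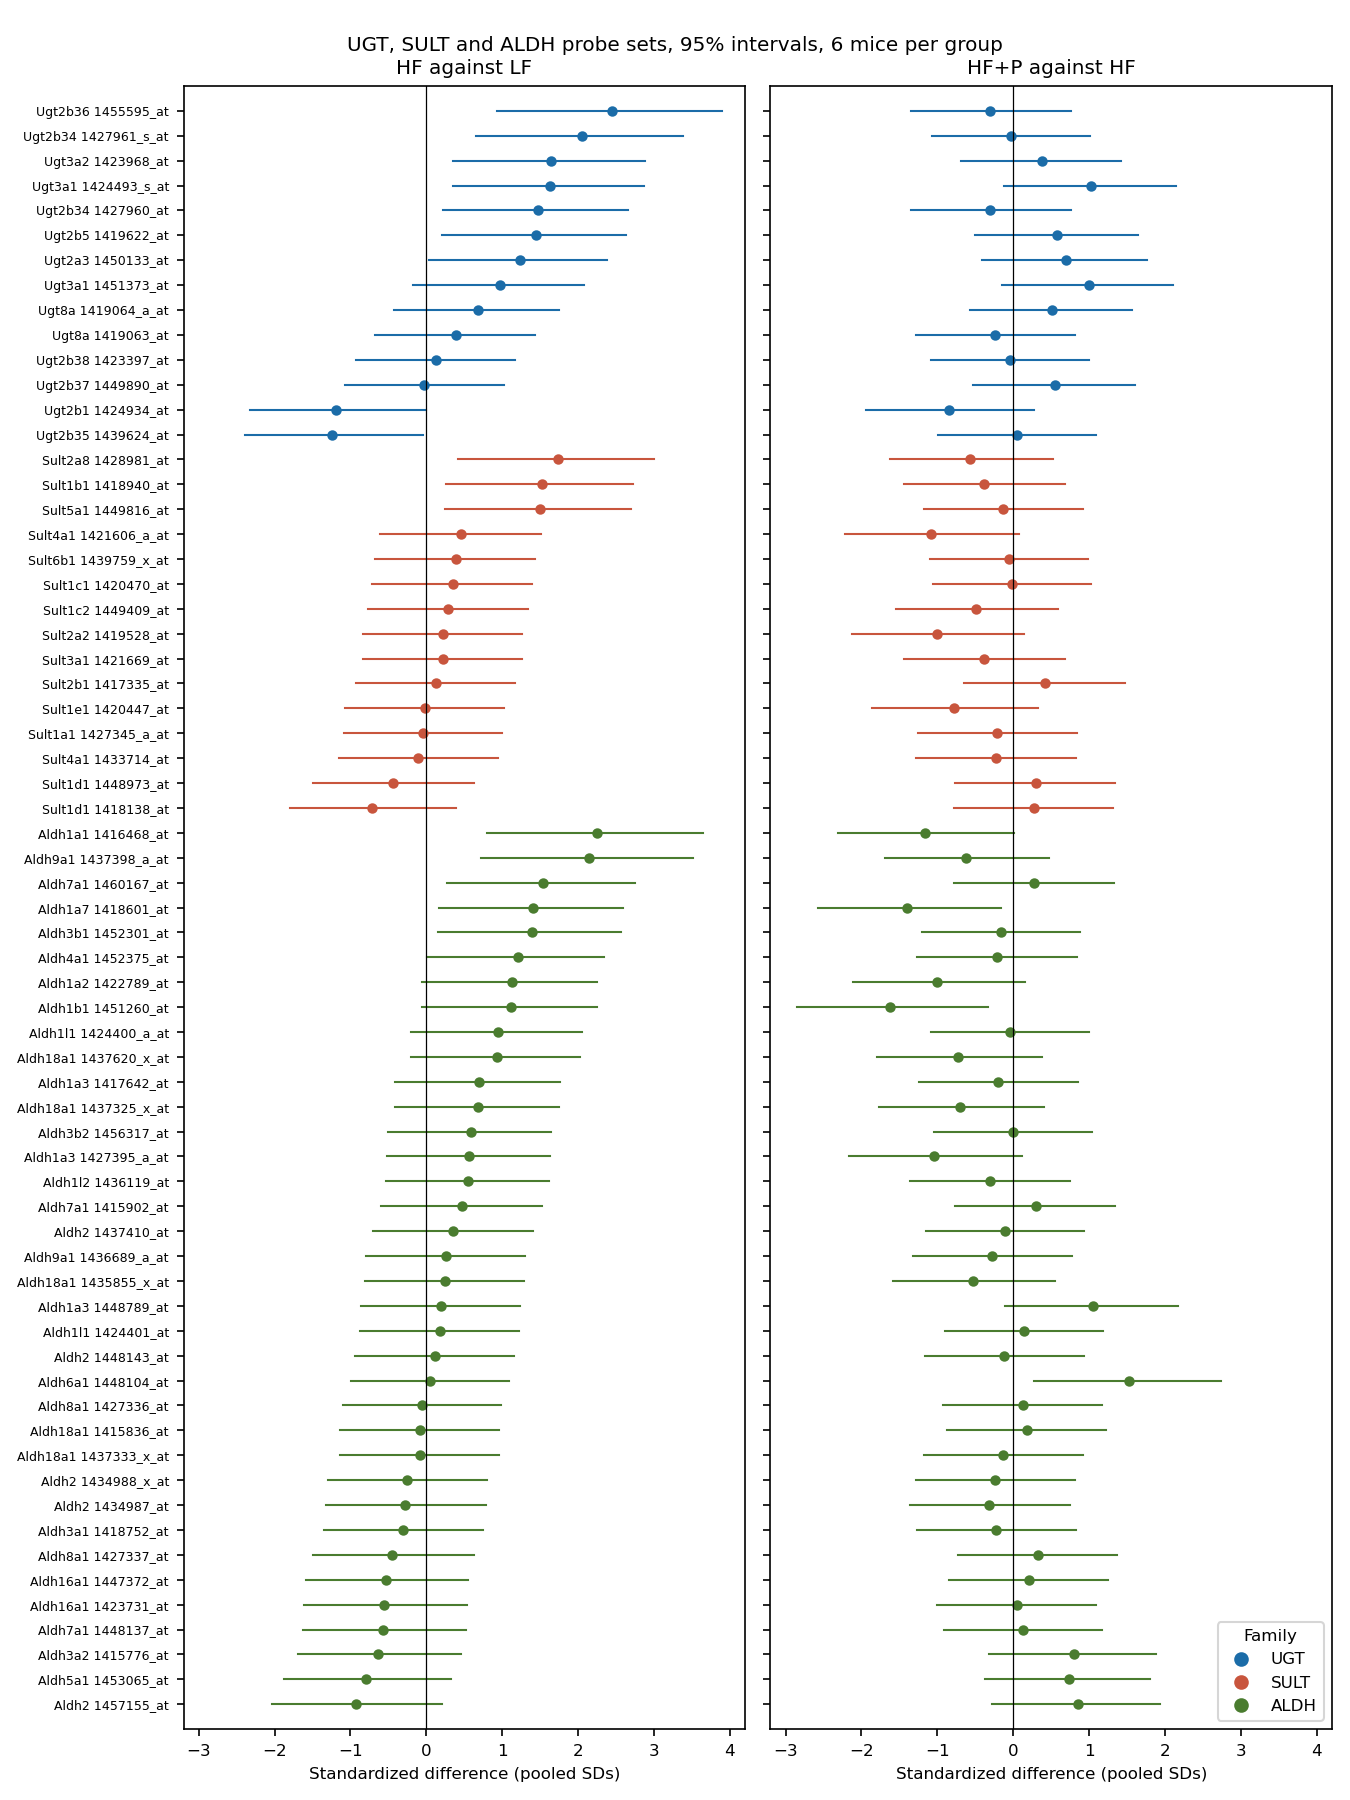
Standardized differences (points, in pooled within-group SDs) with 95% intervals (lines) for the 65 probe sets, 6 mice per group; HF against LF is on the left, HF+P against HF on the right, colours mark the families, and both panels keep the order of the left one within each family. The left panel reaches from -1.24 for Ugt2b35 to 2.44 for Ugt2b36 and the right one from -1.62 for Aldh1b1 to 1.53 for Aldh6a1; centring on column medians turns most signs on the left.

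The UGT members had the highest median among the families, 1.10, with 11 of 14 higher in HF. At an unadjusted p of 0.05 in limma 7 were higher (50%) and 2 lower (14.3%), beside 5.69% and 7.25% of all probe sets. The adjusted threshold was passed by 0. After median centring 1 of 14 was higher, beside 1291 of all 45037 probe sets, and the median was -2.11. Ugt2b36, an enzyme of the subfamily that conjugates steroids and bile acids, had a deposited mean of 12.9 in both groups. Relative to the LF mean, its LF mice ran from -2.81 over a median of 0.227 to 2.72 millionths, and its HF mice from 2.7 over 5.04 to 7.10. All but 1 HF mouse lay above every LF mouse. The standardized difference was 2.44 (0.928 to 3.90; limma adjusted p = 0.0714; exact two-sided permutation p = 0.00433), and it was -2.54 after median centring. The limma adjusted p was 0.0431 without probe sets below the median level and 0.0488 with 1 probe set per gene.

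Ugt2b34, of the same subfamily, has 2 probe sets. On 1427961_s_at (mean 12.2) the LF mice ran from -7.05 over 0.713 to 6.26 millionths and the HF mice from 6.40 over 11.6 to 18.1, so that the groups did not overlap. Its standardized difference was 2.05 (0.649 to 3.39; limma adjusted p = 0.109), and that of 1427960_at was 1.47 (0.217 to 2.66); both turned negative after median centring, at -2.02 and -0.36. Ugt3a2 and Ugt3a1, which use other sugars than glucuronic acid, stood at 1.64 (0.353 to 2.88) and, on its 2 probe sets, at 1.63 (0.345 to 2.87) and 0.97 (-0.174 to 2.08). For Ugt3a1 1424493_s_at the LF mice ran from -16.9 over -3.02 to 28.4 millionths and the HF mice from 11.3 over 33.6 to 67.7. All 3 of these probe sets were negative after median centring. Ugt2b5, with a mean of 13.4, stood at 1.45 (0.203 to 2.64; limma adjusted p = 0.332), with 4 of its HF mice above all LF mice, and at -2.65 after median centring.

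Ugt2b35 and Ugt2b1 lay the other way. The LF mice of Ugt2b35 (mean 11.4) ran from -41.7 over 3.08 to 25.9 millionths, and its HF mice from -60.2 over -22.6 to -9.38, a standardized difference of -1.24 (-2.39 to -0.0409; limma adjusted p = 0.340). For Ugt2b1 (mean 12.8) the LF mice ran from -30.1 over 2.40 to 18.4 and the HF mice from -53.3 over -29.0 to 0.550, a difference of -1.19 (-2.33 to -0.000934; limma adjusted p = 0.361). The groups overlapped in both genes. Median centring lowers each HF minus LF difference by the shift of 64.5 millionths, so the sign of both had to stay negative there.

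Along the chromosome 5 cluster, neighbours thus had opposite signs in the deposited values. The 4 genes that share the 22 bases spread, as deposited, from 2.44 for Ugt2b36 and 1.45 for Ugt2b5 (both negative after median centring) to 0.127 (-0.922 to 1.17) for Ugt2b38 and -0.028 (-1.07 to 1.02) for Ugt2b37. Ugt2b38 had by far the widest spread of all members: its HF mice ran from -95086 to 111224 millionths around the LF mean, so that a difference of 7726 millionths was a small part of an SD. These differences between copies were not tested against each other, since no level of a probe set can be set against that of another.

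**Figure D2:**
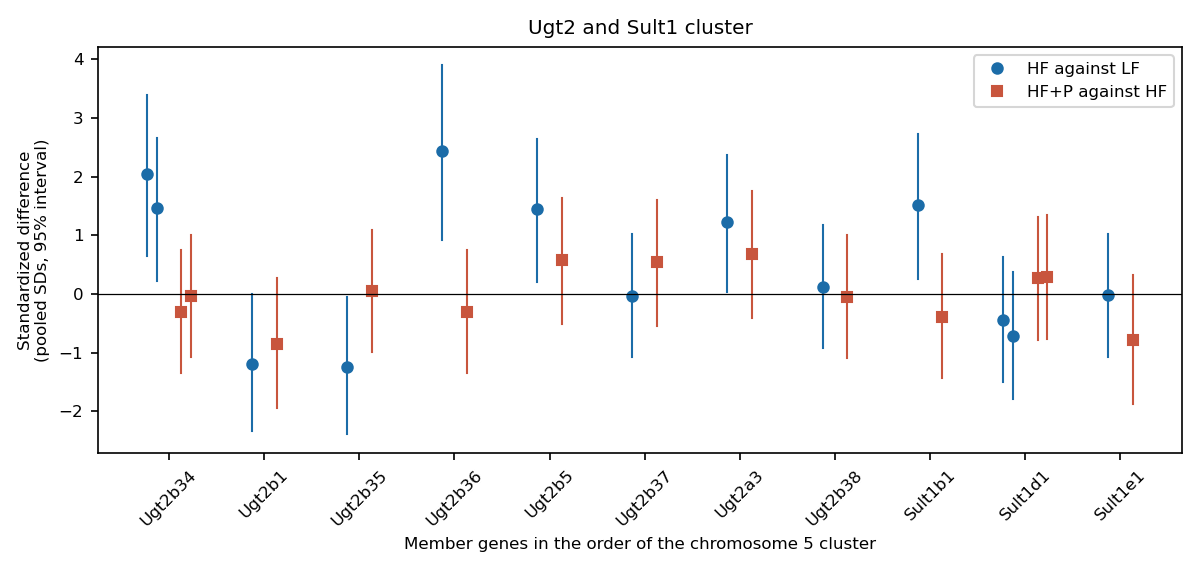
Standardized differences (pooled within-group SDs) with 95% intervals for the member genes of the chromosome 5 cluster in chromosomal order, evenly spaced; circles are HF against LF, squares HF+P against HF, 6 mice per group, and Ugt2b34 and Sult1d1 have 2 probe sets each. Ugt2b34 and Ugt2b36 lie above 2 in HF against LF while Ugt2b1 and Ugt2b35 between them lie below -1; after median centring all 4 genes are negative.

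Among SULT members 10 of 15 were higher in HF (median 0.22). At an unadjusted p below 0.05 in limma 3 were higher (20%) and 0 lower, beside 5.69% and 7.25% of all probe sets. The adjusted threshold was passed by 0. After median centring 2 of 15 were higher, beside 1291 of all 45037 probe sets. Sult2a8, which sulfates bile acids in mouse liver, was the one whose groups did not overlap. Around a mean of 13.5 its LF mice ran from -9.24 over 3.65 to 5.55 millionths and its HF mice from 5.89 over 11.1 to 18.9. The gap between the highest LF and the lowest HF mouse was small beside that spread. Its standardized difference was 1.74 (0.423 to 3.0; limma adjusted p = 0.168; exact two-sided permutation p = 0.00216, the smallest that 924 assignments allow), and -2.17 after median centring.

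Sult1b1, which sulfates phenols and thyroid hormones, kept its sign under all 3 scalings. Its LF mice (mean 8.60) ran from -606.3 over 61.7 to 375.1 millionths and its HF mice from 224.1 over 422.0 to 852.5, a standardized difference of 1.52 (0.260 to 2.73; limma adjusted p = 0.227), of 1.30 after median centring and of 0.74 after quantile normalisation. HF mouse 2 was the highest and stood apart from the other 5. Sult5a1, picked out after its values were seen, stood at 1.5 (limma adjusted p = 0.236). Among the fits without 1 mouse it passed the adjusted threshold only without HF mouse 5. Its HF mice ran from -650.5 over 1739 to 3064 millionths, where the LF mice ran from -463.5 to 303.9. Sult1d1, a catecholamine sulfotransferase, stood at -0.72 (-1.80 to 0.385) and -0.44 (-1.50 to 0.627) on its 2 probe sets. Sult1a1, the main phenol sulfotransferase, was at -0.049 (-1.09 to 0.997) around a mean of 12.2. Sult2a2 and Sult2b1, of the hydroxysteroid branch, were at 0.221 and 0.122, and Sult4a1, a mostly neural form, at 0.46 and -0.11 on its 2 probe sets.

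Among ALDH members 23 of 36 were higher in HF (median 0.25). At an unadjusted p below 0.05 in limma 6 were higher (16.7%) and 0 lower, beside 5.69% and 7.25% of all probe sets. The adjusted threshold was passed by 0. After median centring 3 of 36 were higher, beside 1291 of all 45037 probe sets. Aldh1a1, which makes retinoic acid from retinal in the cytosol, had the largest standardized difference of the family. Its LF mice (mean 13.3) ran from -71.4 over -15.9 to 89.7 millionths and its HF mice from 95.3 over 120.9 to 144.3. No HF mouse overlapped the LF mice, and the LF group was spread more widely (SD 67.2) than the HF group (SD 18.7). The standardized difference was 2.25 (0.792 to 3.64; limma adjusted p = 0.0813; exact two-sided permutation p = 0.00216). It was 0.95 after median centring. When single mice were left out it ran from 2.06 to 3.12, and it passed only without LF mouse 4 (limma adjusted p = 0.0362).

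Aldh1a7, the rodent copy next to it, stood at 1.41 (0.172 to 2.59; limma adjusted p = 0.267). Its LF mice (mean 11.7) ran from -143.2 over -50.7 to 326.5 millionths and its HF mice from 108.7 over 177.6 to 346.3. LF mouse 2 was the one LF mouse among the HF values, and without it the standardized difference was 3.22 (limma adjusted p = 0.0336). Over all fits without 1 mouse it ran from 1.22 to 3.22, and only that fit passed. Aldh1b1, a mitochondrial enzyme for acetaldehyde and retinal, stood at 1.12 (-0.0542 to 2.25; limma adjusted p = 0.394), with LF mice from -1536 over 268.4 to 1186 millionths around 8.14 and HF mice from 152.9 over 1238 to 1647. These 3 genes stayed positive after median centring, the only ALDH members that did.

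Aldh9a1, which oxidises an aldehyde on the way to carnitine, gave different answers on its 2 probe sets. On 1437398_a_at (mean 11.8) the LF mice ran from -2.06 over 0.0317 to 1.96 millionths and the HF mice from 3.45 over 5.55 to 14.8, a standardized difference of 2.15 (0.720 to 3.51; limma adjusted p = 0.0991). HF mouse 4 held the highest value, and without it the standardized difference was 3.48 (limma adjusted p = 0.0440). Over all fits without 1 mouse it ran from 1.95 to 3.48, and only that fit passed. On 1436689_a_at it was 0.261 (-0.796 to 1.30). Both were negative after median centring.

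Aldh2, the mitochondrial enzyme that clears acetaldehyde, has 5 probe sets that spread from -0.93 (-2.03 to 0.209) on 1457155_at to 0.355 (-0.709 to 1.40) on 1437410_at. The brightest of its probe sets, 1448143_at, stood at 0.109 (-0.938 to 1.15) around 13.3, with LF mice from -1.16 to 1.38 millionths and HF mice from -0.868 to 2.16. Aldh5a1, for succinic semialdehyde, was at -0.80 (-1.88 to 0.319), Aldh6a1, for methylmalonic semialdehyde in valine breakdown, at 0.0502 (-0.995 to 1.09) and Aldh1l1, a folate enzyme, at 0.945 (-0.197 to 2.05) on 1424400_a_at. The 3 probe sets of Aldh1a3, another retinal dehydrogenase, lay between 0.195 and 0.692. Aldh6a1, Aldh1l1 1424400_a_at, Aldh1a3 and the Aldh2 probe sets 1437410_at and 1448143_at were negative after median centring. Probe sets of 4 genes (Aldh18a1, Aldh2, Aldh7a1 and Sult4a1) differed in sign among themselves. The 31 member probe sets that the naming rule left out, over all 3 families, lay between -0.63 (Aldh3a2) and 1.53 (Aldh7a1).

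In HF+P against HF, 25 of the 65 members had the higher mean with propagules and 40 the lower one. Their median standardized difference was -0.12, against -0.0095 over all probe sets. After median centring 48 of 65 members were higher, beside 38819 of all 45037 probe sets. After quantile normalisation 20 of the 41 members with a value were higher, beside 21728 of all 40602. No member passed the adjusted threshold in limma, which 0.00222% of all probe sets passed (1 probe set). At an unadjusted p of 0.05 in limma, 1 member was higher, where the share of all probe sets was 3.74%, and 3 were lower, where it was 3.2%; in members these are 1.54% and 4.62%, shares near or below the background. In 0 members did the groups separate, in either direction, against 0.162% of all probe sets for higher and 0.193% for lower. This comparison shares the HF mice with the one above, so the values of both are given side by side only.

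The 3 members lower at an unadjusted p were Aldh1b1, Aldh1a7 and Aldh1a1. For Aldh1b1 the HF mice (mean 7.93) ran from -723.1 over 157.9 to 373.7 millionths and the HF+P mice from -2065 over -1428 to -8.82, a standardized difference of -1.62 (-2.85 to -0.334; limma adjusted p = 0.575; exact two-sided permutation p = 0.0195). In that gene 4 of 6 HF+P mice lay below all HF mice. For Aldh1a7 the HF mice (mean 11.3) ran from -113.6 over -29.8 to 164.2 and the HF+P mice from -465.6 over -205.0 to 0.862, a standardized difference of -1.40 (-2.58 to -0.165; limma adjusted p = 0.649). For Aldh1a1 (mean 13.6) the ranges were -4.16 over 0.408 to 4.83 and -17.6 over -6.63 to -0.0617 millionths, a standardized difference of -1.17 (-2.30 to 0.0156; limma adjusted p = 0.712), or -0.35 after median centring. The same 3 genes stood at 1.12, 1.41 and 2.25 in HF against LF. Their signs held after median centring in both comparisons. Aldh1a1 and Aldh1a7 held the same rank on all arrays of each comparison, so they have no value after quantile normalisation. Aldh1b1 stood there at 0.571 in HF against LF and at -1.43 in HF+P against HF.

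Aldh6a1 lay the other way, with HF mice from -1.40 over -0.445 to 2.36 millionths around 12.3 and HF+P mice from 0.460 over 2.10 to 2.66. Only 1 HF+P mouse lay above all HF mice, and the standardized difference was 1.53 (0.268 to 2.74; limma adjusted p = 0.664). Aldh1a3 had opposite signs on 2 probe sets, 1.05 (-0.107 to 2.17) on 1448789_at and -1.05 (-2.16 to 0.113) on 1427395_a_at. Probe sets also differed in sign in Aldh18a1, Aldh1l1, Aldh2 and Ugt8a. Of the 36 ALDH probe sets 14 were higher.

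Of the UGT members 8 of 14 were higher with propagules, with a median of 0.215 and 0 past an unadjusted p of 0.05 in limma. Of all probe sets 3.74% were higher and 3.2% lower at that p. Ugt3a1 stood at 1.03 (-0.127 to 2.14) on 1424493_s_at and 1.0 (-0.150 to 2.11) on 1451373_at, and the former was -1.68 after quantile normalisation. Ugt2b1 stood at -0.85 (-1.94 to 0.276): its HF mice ran from -128.2 over -5.42 to 103.1 millionths around 12.4 and its HF+P mice from -321.9 over -112.5 to 88.5. Ugt2b36 was at -0.30 (-1.35 to 0.759; 0.603 after median centring), with HF mice from -0.375 to 0.305 millionths and HF+P mice from -0.355 to 0.225, and Ugt2b34 at -0.032 and -0.30 on its 2 probe sets. Ugt2b5 was at 0.578 (-0.509 to 1.64), Ugt2b35 at 0.0522 (-0.993 to 1.10) and Ugt3a2 at 0.377 (-0.688 to 1.43).

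Of the SULT members 3 of 15 were higher with propagules and 12 lower, with a median of -0.232 and 0 past an unadjusted p of 0.05 in limma. Of all probe sets 3.74% were higher and 3.2% lower at that p. After median centring 9 of 15 were higher, beside 38819 of all 45037 probe sets. Sult4a1 stood at -1.09 (-2.21 to 0.0793) on 1421606_a_at, or 0.228 after median centring, and Sult2a2 at -1.01 (-2.12 to 0.144). The HF mice of Sult2a2 ran from -5.13 over -2.07 to 8.92 millionths around 6.13 and the HF+P mice from -9.30 over -3.79 to -1.55. The highest standardized difference of the family was 0.419 (-0.651 to 1.47) in Sult2b1. Sult2a8 was at -0.57 (-1.63 to 0.518; 0.5 after median centring), Sult1b1 at -0.39 (-1.44 to 0.680), Sult1a1 at -0.21 (-1.25 to 0.843) and Sult1d1 at 0.273 and 0.297 on its 2 probe sets. All of these intervals include 0, and they are wide enough to hold differences of over 1 SD.

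**Figure D3:**
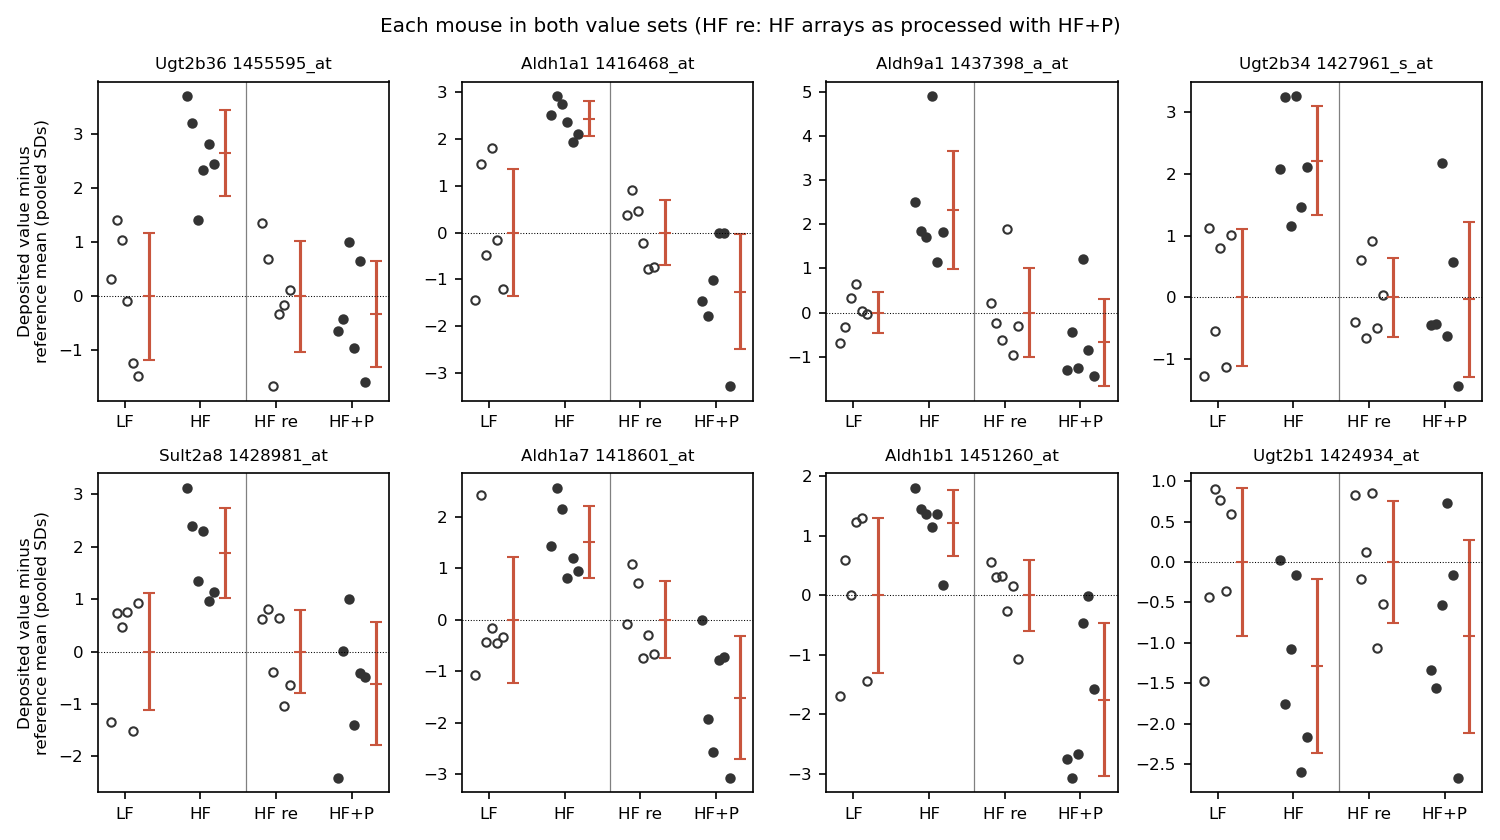
Values of 8 probe sets in each mouse, minus the mean of the reference group and divided by the pooled SD; left of the line are LF (open) and HF (filled), right of it the same HF arrays in their second analysis (HF re, open) and HF+P (filled), and bars give the mean ± SD of 6 mice. In Aldh1a1, Aldh9a1, Ugt2b34 and Sult2a8 no HF mouse overlaps the LF mice; after median centring the mean of HF is the lower one in Aldh9a1, Ugt2b34, Sult2a8 and Ugt2b36.

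How far a member's difference stands out depends on its spread, which varied between members by orders of magnitude. In HF against LF, 6 members were higher by more than the 64.5 millionths of the median shift: Aldh1a1 (by 120.2), Aldh1a7, Aldh1b1, Sult1b1, Sult5a1 and Ugt2b38. A further 4 were lower by more than it: Aldh3a2, both probe sets of Sult1d1 and Aldh2 1434988_x_at. The other members had differences smaller than the shift. In HF+P against HF, where the shift was small, 28 members exceeded it, 11 higher and 17 lower.

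**Figure D4:**
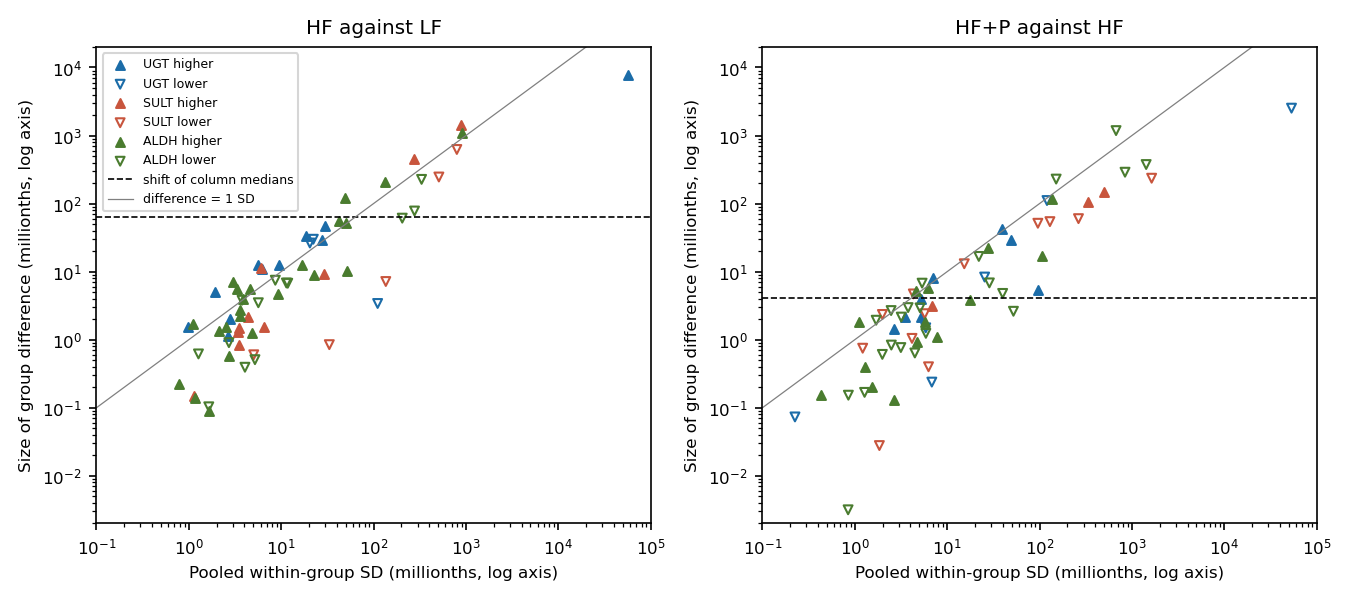
Size of the group difference against the pooled within-group SD for the 65 probe sets, both in millionths of a deposited unit on log axes; filled triangles point up for members higher in the first-named group, open ones down for lower, the dashed line is the size of the shift of the column medians and the grey line marks a difference of 1 SD. In HF against LF 10 members lie above the dashed line, and in HF+P against HF 28 do.

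The same 6 HF arrays gave other values in their 2 analyses. The mean of Ugt2b5 was 13.4 in the analysis with LF and 12.4 in that with HF+P, a shift of -1.02. In 4 members the mean moved by over 0.5 (also Aldh3b2 by -0.79, Aldh18a1 1435855_x_at by -0.59 and Sult2b1 by -0.58), and the median absolute shift of 0.104 in members was close to the 0.103 of all probe sets. Spread moved as well: the SD over the HF mice was 6.60 times as large in the analysis with LF as in that with HF+P for Ugt2b36, 5.43 times for Sult2a8, 5.06 times for Aldh1a1 and 0.195 times for Sult2b1. Between the 2 analyses, Pearson r over the 6 HF mice lay between 0.598 (Aldh3b2) and 1 in the members, with a median of 0.981 and 54 of 65 above 0.9; over all probe sets the median was 0.952, with 30726 of 45037 above 0.9. Since the arrays are the same, this r is a description of the processing, not a replication.

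**Figure D5:**
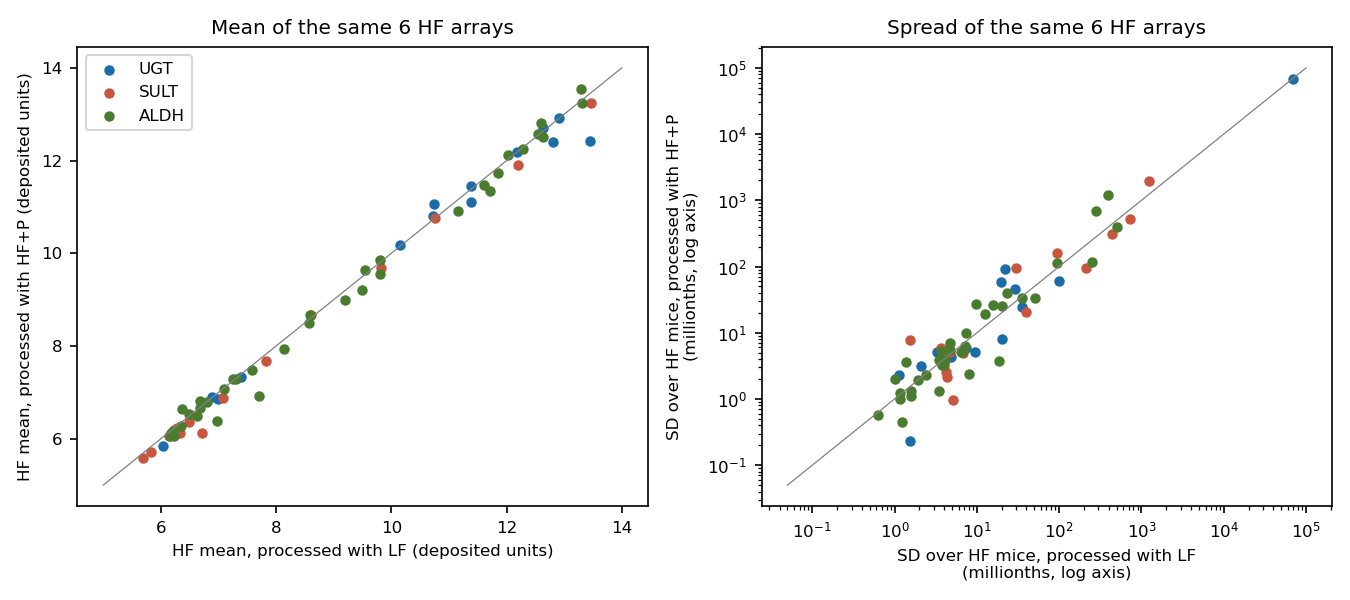
Left, mean of the 6 HF arrays in the analysis with LF (x) and with HF+P (y), in deposited units, for the 65 probe sets; right, the SD over the same 6 mice in millionths on log axes, with the grey lines marking equality. Ugt2b5 falls below the line on the left (13.4 against 12.4), and on the right the SDs of Ugt2b36, Sult2a8 and Aldh1a1 are over 5 times as large in the analysis with LF.

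Other genes of these pathways were described from lists of cofactor supply, related enzymes and regulators, 1 probe set per gene. Of 57 measured partner genes 1 passed the adjusted threshold in HF against LF. Aox3, the aldehyde oxidase of mouse liver, rose with a standardized difference of 3.39 (1.57 to 5.17; limma adjusted p = 0.0172), all 6 HF mice lying above all LF mice, and it stood at 3.37 after median centring and 3.0 after quantile normalisation. Among the other aldehyde and alcohol enzymes, 14 of 21 were higher in HF (7 of 21 after median centring). Of all 45037 probe sets 22898 were higher as deposited and 1291 after median centring, which is the background for the other lists too. Adh4 and Adh1, alcohol dehydrogenases that make aldehydes and retinal from alcohols, stood at 2.61 (1.05 to 4.12; limma adjusted p = 0.0529) and 2.18 (0.745 to 3.56; limma adjusted p = 0.0904), and Adh1 turned to -1.87 after median centring.

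For UGT enzymes, 8 of 9 genes of the UDP-glucuronate list were higher in HF, or 2 of 9 after median centring, and 0 passed. Ugdh, which makes UDP-glucuronate, stood at 2.11 (0.693 to 3.46; limma adjusted p = 0.0991) and Slc35b1, a nucleotide transporter of the endoplasmic reticulum, at 1.56 (0.290 to 2.78), or -0.92 after quantile normalisation. Gusb, the glucuronidase that removes the sugar again, stood at -2.08 (-3.43 to -0.673; limma adjusted p = 0.103). For SULT enzymes, 8 of 13 genes of the sulfate and PAPS list were higher, or 3 of 13 after median centring, and 0 passed. Slc26a1, a sulfate transporter, stood at 2.45 (0.931 to 3.90; limma adjusted p = 0.0636) and Slc35b3, a PAPS transporter, at -1.58 (-2.80 to -0.306). Papss1, a PAPS synthase, stood at 1.47 (0.225 to 2.67) as deposited but at -1.26 after median centring (limma adjusted p = 0.0326) and -2.59 after quantile normalisation (limma adjusted p = 0.00818). Of 14 regulators 11 were higher, or 2 after median centring, and 0 passed, with Nr1i3, the receptor CAR, at 1.32 (0.105 to 2.48) as the largest.

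In HF+P against HF, 0 of the partner genes passed in limma. At an unadjusted p of 0.05 in limma, 1 gene of the UDP-glucuronate list and 1 of the sulfate list were higher. Lower were 2 of the other aldehyde and alcohol enzymes and 2 of the regulators. The shares of all probe sets were 3.74% for higher and 3.2% for lower. Adh7, an alcohol dehydrogenase, stood at -2.49 (-3.96 to -0.963; limma adjusted p = 0.436), with every HF+P mouse below every HF mouse, and at -0.50 after median centring. Adh4 stood at -1.41 (-2.60 to -0.178) and Aox3 at 0.422. The oestrogen receptor Esr1 stood at -1.76 (-3.02 to -0.439; limma adjusted p = 0.542) and Nr1i3 at -1.36 (-2.54 to -0.139). Suox, the sulfite oxidase that yields sulfate, stood at 1.27 (0.0678 to 2.43) and Gusb at 1.14 (-0.0342 to 2.28).

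Markers of other liver cells also varied between the groups. Of 10 Kupffer cell and macrophage markers 9 were higher in HF than in LF (median 0.703; 9 of 10 also after median centring), with a mean score, in pooled SDs, from -0.81 to 1.52 in LF mice and from -0.31 to 2.50 in HF mice, the highest being HF mouse 3. In HF+P against HF all 10 had negative differences (median -0.67). Of the 7 hepatocyte markers 6 were lower in HF (median -0.71), with scores from -0.75 to 0.562 in LF and from -1.53 to 0.0634 in HF mice. Among these 6, Ttr and Apoa1 differed by only -0.015 and -0.0133 millionths. After median centring 0 of the 7 were higher in HF (median -2.77). With propagules 5 of the 7 were higher than in HF, or 7 after median centring. The score of 3 pancreatic acinar markers ran from -0.48 to 0.226 in LF and from 0.384 to 1.27 in HF mice, but the markers differed in sign: Cela1 stood at 2.29, Cpa1 at 0.942 and Prss2 at -0.84. After median centring 1 of these 3 was higher in HF (Cela1, at 1.77), and the list's median was -2.73. None of the markers passed the adjusted threshold in limma on the deposited values. Their part in the values of the UGT, SULT and ALDH genes was not tested, and in bulk tissue fewer cells of a type and less RNA per cell cannot be told apart.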

How the data were processed

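Arrays carried biotin-labelled amplified RNA made from Trizol extracts, per the labels' protocols. The authors deposited 24 columns of values from 18 arrays, the HF arrays standing in both value sets. The submitters' processing notes name R 2.7.2; how probes were summarised and normalised, and the log base, is not given in the sources used here. As to unit, the authors' deposited values were handled as log2. Genes were named by the platform's annotation table; all 65 members matched RefSeq (GRCm38.p6) by gene identifier.

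Each comparison was fitted over all 45037 non-control probe sets in limma 3.58.1 (R 4.3.3; lmFit and eBayes, two-sided, Benjamini-Hochberg, threshold 0.05), 6 mice per group, no covariate. Standardized differences carry the Hedges correction and a 95% noncentral t interval. Permutation tests enumerated all 924 assignments. The fit was checked on simulated data. Marker scores average a list's values minus the reference mean, in pooled SDs.

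Members, lists and tests were chosen with earlier results of these data known. Named were, per family and comparison, the 2 highest and 2 lowest standardized differences with the other probe sets of those genes, the 3 genes with the highest mean per family, and up to 3 partner genes per list besides those past the threshold: 34 probe sets of 23 member genes. Alternatives were quantile normalisation, median centring, fewer probe sets, trend and robust fits, array weights, the mouse number as a block, a threshold of 0.1 and leaving out each mouse.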

Additional observations from a re-analysis of the deposited data

Results flagged for a closer look

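Among 136 sets of 6 mice screened, 16 held a mouse that stood apart from the others. The criterion was a gap to the nearest mouse above Dixon's critical value, as a part of the group's range. Chance gives about 1 in 20 for independent sets. The sets screened are not independent, since the HF arrays enter in both analyses and some genes have several probe sets. No excess is therefore read from the count. In LF the cases were Aldh1a7 in mouse 2 (highest, gap 0.741 of the range), Aldh2 1434988_x_at in mouse 1 (lowest, 0.645) and Aldh1l1 1424400_a_at in mouse 8 (lowest, 0.661). In HF as analysed with LF they were Aldh9a1 1437398_a_at in mouse 4 (highest, 0.640), Sult1b1 in mouse 2 (highest, 0.656), Aldh2 1437410_at in mouse 8 (lowest, 0.669) and Aldh1l1 1424400_a_at in mouse 8 (lowest, 0.814). The same HF mice stood apart in the other analysis for Sult1b1 (mouse 2, highest, 0.675) and Aldh1l1 (mouse 8, lowest, 0.759), which is the same array read again.

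In HF+P the mice concerned were mouse 4 for Aldh9a1 1437398_a_at (highest, 0.626), mouse 3 for Sult2b1 (lowest, 0.700), Ugt3a2 (highest, 0.626) and Sult1a1 (lowest, 0.636), and mouse 8 for Ugt3a1 1451373_at (lowest, 0.698), Aldh2 1434987_at (highest, 0.824) and Aldh2 1434988_x_at (highest, 0.881). These last 2 probe sets name the same gene and are not independent. Over all 65 members, HF+P mouse 8 held the lowest value of its group in 21 and HF+P mouse 4 the highest in 20. Other groups had mice as extreme. HF mouse 5 was lowest in 21 members in the analysis with LF and in 20 in that with HF+P, where HF mouse 3 was also lowest in 20.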

How the results depend on the processing

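For HF against LF, the 0 members called became 3 after quantile normalisation (Aldh16a1, Aldh18a1 and Aldh2, all lower), 48 after median centring (46 lower, with Sult1b1 and Sult5a1 higher), 1 without probe sets below the median level (Ugt2b36), 1 with 1 probe set per gene (Ugt2b36), 3 at a threshold of 0.1 (Aldh1a1, Aldh9a1 and Ugt2b36) and 0 to 1 when single mice were left out (Aldh1a7 without LF mouse 2, Aldh1a1 without LF mouse 4, Aldh9a1 without HF mouse 4, Sult5a1 without HF mouse 5). The trend and robust fit, array weights and 1-symbol probe sets kept 0. Over all probe sets the 302 calls (121 higher, 181 lower) became 42369 of 45037 (322 higher) after median centring. After quantile normalisation they were 7305 of 40595 (219 higher). Both scalings thus moved the array at large, members included, and median centring moved far more of it. Without probe sets below the median level the calls were 568, and without LF mouse 5 they were 131. The 1 partner gene called became 12 after quantile normalisation and 46 after median centring. For HF+P against HF, 0 members were called under every setting run, and 0 partner genes under these 2 scalings.

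The labels state no pairing by mouse number, and whether the number pairs the mice was not tested. Deviations of mice with the same number correlated at -0.13 to 0.0976 over 6 pairs of LF and HF. Their median was 0.079, against -0.013 for other numbers. Over 5 pairs of HF and HF+P the range was 0.0338 to 0.209, with a median of 0.066, against -0.011 for other numbers. Not every mouse correlated best with its own number. With the number as a block, HF against LF had 1 member called (Ugt3a1 1424493_s_at, 3.96, limma adjusted p = 0.0417) among 246 probe sets, HF+P against HF had 0, and Aldh1a3 1417642_at in the latter turned to 0.0447.

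Named standardized differences of HF against LF that turned sign after median centring were Aldh9a1 (-2.46 on 1437398_a_at, -2.73 on the other), Sult2a8 (-2.17), Ugt2b34 (-2.02 and -0.361), Ugt2b36 (-2.54), Aldh1a3 (-2.82, -2.51 and -2.61), Aldh6a1 (-2.77), Sult4a1 1421606_a_at (-2.63), Sult2a2 (-2.52), Sult2b1 (-2.84), Ugt3a1 (-0.942 and -0.934), Aldh2 1437410_at (-1.78), Aldh2 1448143_at (-2.73), Ugt2b5 (-2.65), Ugt3a2 (-2.21) and Aldh1l1 (-0.269). After quantile normalisation they were Ugt2b34 (-0.842 and -1.19), Sult4a1 1421606_a_at (-1.51), Sult2a2 (-1.12), Sult2b1 (-1.50), Aldh1a3 (-0.926 and -1.12) and Aldh2 1437410_at (-1.17); probe sets with the same rank on all arrays have no value there. Of HF+P against HF, median centring turned Aldh9a1 (0.256 and 0.514), Sult2a8 (0.5), Ugt2b34 1427961_s_at (0.401), Ugt2b36 (0.603), Sult4a1 (0.228 and 0.368), Aldh1a3 (0.260 and 0.304), Aldh2 1448143_at (0.626) and Aldh1l1 (0.0263), and quantile normalisation Sult1d1 1448973_at (-0.327), Sult1b1 (0.0752), Ugt3a1 1424493_s_at (-1.68), Aldh1a3 (0.562 and 0.184), Sult4a1 1433714_at (0.596) and Aldh2 (0.178 on 1434987_at, 0.0319 on 1434988_x_at). Array weights turned Ugt2b35 (-0.0605), Aldh2 1437410_at (0.0374) and Aldh1l1 (0.0109) in HF+P against HF. The cause was not tested.

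Leaving out single mice turned only values near 0. In HF against LF the ranges were -0.104 to 0.614 for Aldh1a3 1448789_at, -0.959 to 0.0862, -1.16 to 0.106, -0.103 to 0.630 and -0.248 to 0.338 for Aldh2 1434987_at, 1434988_x_at, 1437410_at and 1448143_at, -0.309 to 0.239 for Aldh6a1, -0.227 to 0.537 for Aldh9a1 1436689_a_at, -0.470 to 0.166 for Sult1a1, -0.115 to 0.519 for Sult2a2, -0.206 to 0.400 for Sult2b1 and -0.580 to 0.318 for Sult4a1 1433714_at. In HF+P against HF they were -0.608 to 0.0292 for Aldh1a3 1417642_at, -0.491 to 0.360 for Aldh1l1, -1.06 to 0.0314, -0.354 to 0.393 and -0.452 to 0.224 for Aldh2 1434988_x_at, 1437410_at and 1448143_at, -0.539 to 0.0380 for Aldh9a1 1436689_a_at, -0.455 to 0.413 for Sult1a1, -0.0443 to 0.578 for Sult1d1 1448973_at, -0.798 to 0.0305 for Sult4a1 1433714_at, -0.644 to 0.245 for Ugt2b34 1427961_s_at and -0.316 to 0.540 for Ugt2b35. With 6 mice per group, intervals span about 2 pooled SDs or more, and signal over background is unknown because the files give no background.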
